A study of Mus musculus with 53 samples.

Results

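Active chromatin was compared between 2 media that keep mouse embryonic stem cells (ESCs) undifferentiated, using the acetylation of histone H3 at lysine 27 (H3K27ac) in 2iLIF and in NACL. All 4 H3K27ac libraries of these media were used, of 53 samples in the series, and they held 1069627 of the 1997019 peaks in the lists of those samples. Each library was reduced to the same number of strongest peaks by maximum signal. That number was first 210904, the size of the smallest list, and then 20000. Peaks that overlapped by at least 1 bp were merged into regions. A region with a peak in both libraries of one medium and in neither library of the other is called 2iLIF-only or NACL-only, and a region with a peak in all 4 libraries is called shared.

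The study followed how the epiblast factor SOX2 and the endoderm factor GATA6 come to be expressed in the same cells. Its SGGC line was made from E14JU ESCs, with the endogenous SOX2 fused to GFP and the endogenous GATA6 fused to mCherry. Clones B9 and B12 of this line, which keep their resistance cassettes, were each grown for at least 4 passages in 2iLIF and in NACL, so that each medium had 2 libraries, 1 per clone. CUT&RUN, in which an antibody directs a nuclease to cut DNA beside the protein of interest, was run on sorted cells with the H3K27ac antibody Abcam ab4729.

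2iLIF contains the MEK inhibitor PD0325901, the GSK3 inhibitor CHIR99021 and the cytokine LIF. NACL contains Activin A, CHIR99021 and LIF, without the MEK inhibitor. Both media therefore share the GSK3 inhibitor, which stabilises beta-catenin and so turns on Wnt targets through TCF/LEF factors, and LIF, which acts through STAT3. They differ in MEK, the kinase that carries FGF signals to ERK, and in added Activin, which acts through SMAD2 and SMAD3. H3K27ac marks active promoters and enhancers, and H3K4me1 marks enhancers more broadly.

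Windows from 6 regions show the kinds of site described below. Each window holds 200 bases of the plus strand of the GRCm38.p6 assembly from RefSeq, around the strongest H3K27ac maximum, and capitals mark matches on either strand to a searched motif string. Sp5 and Dusp6 were shown because they lie near target genes of the Wnt and ERK pathways, and Dnajb9 and Txndc2 because they are the strongest 2iLIF-only region with a TCF/LEF string (CTTTGAT) and the strongest NACL-only region with an AP-1 string (TGANTCA). The Dnajb9 region lies 998600 bp from the start of that gene, its nearest, and the Txndc2 region 21669 bp. These 4 were chosen after their values were seen. Zfp992 and Fbxw4 were taken by rule as the strongest regions with no peak at all in the other medium.
Sp5, 2iLIF-only, chr2:70485681-70485880 (MYC string): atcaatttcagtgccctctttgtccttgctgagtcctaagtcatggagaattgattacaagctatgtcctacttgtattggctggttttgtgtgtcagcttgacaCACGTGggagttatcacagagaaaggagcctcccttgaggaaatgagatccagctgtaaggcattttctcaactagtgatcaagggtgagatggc
Dnajb9, 2iLIF-only, chr12:43211368-43211567 (TCF/LEF string): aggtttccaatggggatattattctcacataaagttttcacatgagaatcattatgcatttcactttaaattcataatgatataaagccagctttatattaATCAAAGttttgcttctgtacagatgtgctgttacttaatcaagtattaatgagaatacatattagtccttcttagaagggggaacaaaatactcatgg
Zfp992, 2iLIF-only, chr4:146457761-146457960 (TEAD string): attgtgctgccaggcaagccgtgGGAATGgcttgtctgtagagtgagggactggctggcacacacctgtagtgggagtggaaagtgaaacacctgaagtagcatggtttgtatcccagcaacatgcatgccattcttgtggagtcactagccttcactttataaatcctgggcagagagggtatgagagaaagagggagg
Dusp6, NACL-only, chr10:99293192-99293391 (SOX2 and TEAD strings): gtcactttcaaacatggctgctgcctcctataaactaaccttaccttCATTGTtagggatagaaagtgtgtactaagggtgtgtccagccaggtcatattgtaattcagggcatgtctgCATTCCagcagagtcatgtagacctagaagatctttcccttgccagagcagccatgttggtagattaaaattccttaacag
Txndc2, NACL-only, chr17:65663737-65663936 (OTX2 and AP-1 strings): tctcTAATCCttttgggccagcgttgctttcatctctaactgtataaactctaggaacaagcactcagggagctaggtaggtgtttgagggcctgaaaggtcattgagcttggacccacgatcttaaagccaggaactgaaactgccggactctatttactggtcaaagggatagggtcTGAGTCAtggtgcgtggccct
Fbxw4, NACL-only, chr19:45650071-45650270 (no string): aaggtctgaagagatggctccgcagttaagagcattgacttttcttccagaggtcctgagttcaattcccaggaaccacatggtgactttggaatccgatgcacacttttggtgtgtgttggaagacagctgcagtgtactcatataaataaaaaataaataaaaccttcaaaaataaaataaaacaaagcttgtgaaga

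The lists held 232779 peaks in 2iLIF B9, 401853 in 2iLIF B12, 224091 in NACL B9 and 210904 in NACL B12. Maximum signal took whole-number values that were not scaled between libraries, with a median of 6 in both 2iLIF libraries and 7 in both NACL libraries. Read totals were not given, so the depth was unknown, and levels were compared between libraries as ranks within a library (rank 1 is the strongest peak) or after normalisation. Naive pluripotency genes carried strong promoter peaks in all 4 libraries. Of 18 naive pluripotency genes, 13, 12, 13 and 11 had a peak among the 20000 strongest within 1 kb of a start site in 2iLIF B9, 2iLIF B12, NACL B9 and NACL B12, where 32.8%, 30.0%, 32.4% and 34.6% of all protein-coding genes had one. The peak at Tfcp2l1, a naive transcription factor and LIF target, ranked 21 and 5 in 2iLIF and 2785 and 54 in NACL. Pou5f1, which encodes OCT4, had ranks of 1544 and 834 in 2iLIF and 3747 and 2910 in NACL. None of 10 fibroblast genes had such a peak in any library. Of 15 formative and primed epiblast genes 0, 0, 1 and 1 had one, of 20 primitive endoderm genes 2, 2, 2 and 3, and of 12 trophoblast genes 1 in each library, Tead4.

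At the equal number of 210904 peaks the 4 lists merged into 348839 regions. Of these, 10207 were 2iLIF-only (2.93%), 16597 were NACL-only (4.76%) and 59617 were shared (17.1%). The other ways of finding a region in exactly 2 libraries held similar numbers, from 9458 for 2iLIF B9 with NACL B12 to 11804 for both B12 libraries. At this number, sharing a medium therefore gave more regions than the other pairs only for NACL. Which medium-only class was the larger changed with the setting, as given further below. The 20000 strongest peaks gave a different picture. They merged into 27908 regions, of which 1332 were 2iLIF-only (4.77%), 1386 were NACL-only (4.97%) and 9818 were shared (35.2%). The 4 pairs across media held 438 to 718 regions, so both medium-only classes were larger than any pair of libraries from different media. With 1 library left out, a class needs a single library of that medium or lacks one that could exclude it. The classes then held 2086 to 3905 2iLIF-only and 2314 to 4470 NACL-only regions.

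**Figure D1:**
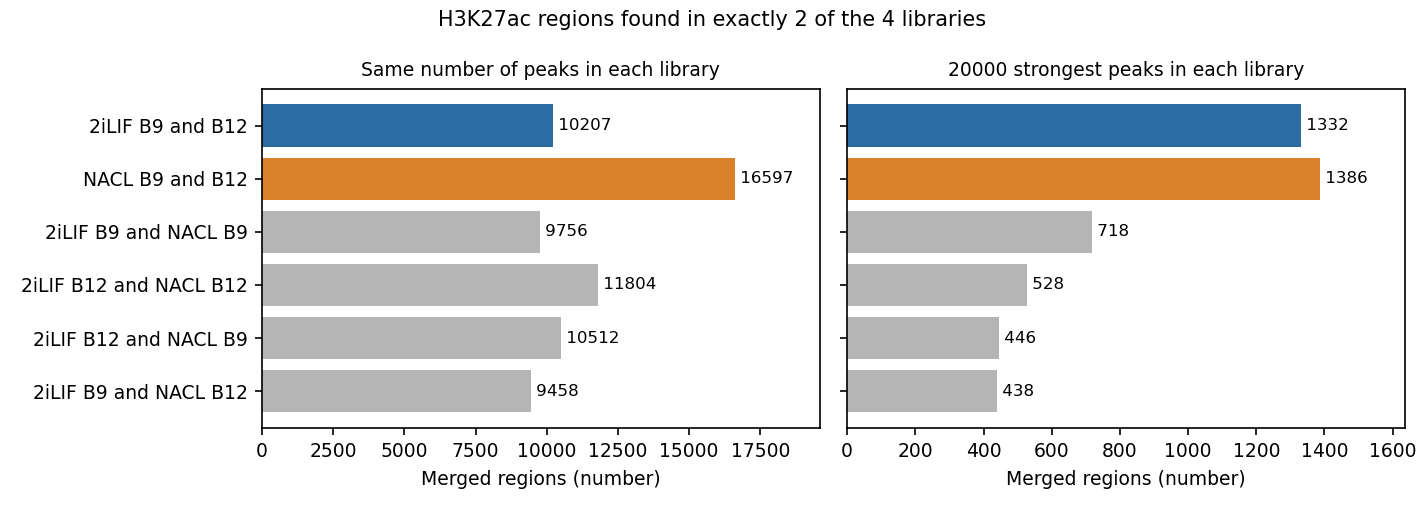
Merged H3K27ac regions found in exactly 2 of the 4 libraries, by pair of libraries, with the same number of peaks (210904, left) and the 20000 strongest peaks (right) of each library. Horizontal axes give the number of regions. At 20000 peaks the 2 medium pairs (1332 and 1386, coloured) exceed the other 4 pairs (438 to 718, grey).

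The libraries of one medium also resembled each other more among strong peaks. Of the 20000 strongest peaks of a library, 75.5% to 77.0% overlapped one of the other library in the same medium, 69.2% to 75.2% one of the same clone in the other medium, and 69.2% to 72.9% one of the remaining library. At the equal number this held only for NACL. There 2iLIF B9 peaks overlapped 2iLIF B12 in 58.8% and NACL B9 and B12 in 59.4% and 59.2%. For 2iLIF B12 the shares were 53.9% with 2iLIF B9, and 58.3% and 59.2% with NACL B9 and B12. NACL B9 had 61.3% with NACL B12, and 53.2% and 57.1% with 2iLIF B9 and B12. NACL B12 had 60.1% with NACL B9, and 52.4% and 56.6% with 2iLIF B9 and B12. Over the 59617 shared regions the Spearman correlation of maximum signal was 0.713 between the 2iLIF libraries and 0.734 between the NACL libraries. Between libraries of different media it was 0.638 to 0.701. These correlations are across regions, which are not independent replicates.

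At 20000 peaks most medium-only regions had a weaker peak in the other medium rather than none. Of the 1332 2iLIF-only regions only 18 (1.35%, 95% Clopper-Pearson interval 0.803% to 2.13%) had no peak in the full lists of either NACL library. Of the 1386 NACL-only regions, 10 (0.722%, 0.347% to 1.32%) had none in the full lists of either 2iLIF library. The full lists were longer in 2iLIF, with 401853 peaks in B12, so these shares do not compare like with like. Both libraries of the other medium had a peak at 93.4% of the 2iLIF-only and 96.0% of the NACL-only regions. In 77.3% and 77.1% the strongest of those peaks was within the 40000 strongest of its library. These intervals cover counting error only. At the equal number, 9813 of 10207 2iLIF-only and 7961 of 16597 NACL-only regions had no peak in the other medium's full lists.

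The medium-only regions were narrower than shared ones and lay less often at genes' starts, as did regions found in other pairs of libraries. At 20000 peaks the median width was 4379 bp for 2iLIF-only, 4101 bp for NACL-only and 8634 bp for shared regions, and the pairs across media had 3632.5 to 4541 bp, with 10.1% to 32.4% within 1 kb of a start site of a protein-coding gene. Such a start site lay within 1 kb in 12.5% of 2iLIF-only regions (10.8% to 14.4%), in 22.4% of NACL-only regions (20.2% to 24.7%) and in 50.9% of shared regions. The intervals of the medium-only classes did not overlap. At the equal number the order was the same, with 3.13%, 6.39% and 17.9%. The order rested on NACL B12, without which 18.2% of 2iLIF-only and 15.2% of NACL-only regions lay at a start site at 20000 peaks, and 3.67% and 3.44% at the equal number. With total signal to rank peaks the shares at 20000 peaks were 16.5% and 18.7%. The median distance to a start site was 20307 bp for the 2iLIF-only and 17262 bp for the NACL-only regions at 20000 peaks, and the strongest maximum lay inside a gene in 58.7% and 51.9%. Since regions are not replicates, the same measure was compared over the libraries. Among the 20000 strongest peaks 33.7% and 31.3% lay within 1 kb of a start site in 2iLIF B9 and B12, and 33.0% and 35.0% in NACL B9 and B12. These ranges overlapped between media.

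The largest NACL-only share of any list was at ERK response genes, which are turned on when MEK is active and include feedback inhibitors of the pathway. Of 80 regions nearest to the 17 genes of this list, 11 were NACL-only (13.8%, against 4.97% of all regions) and 2 were 2iLIF-only (2.5%, against 4.77%). The 11 regions were nearest to 7 genes, which is 41.2% of the list, against 5.67% of all 21853 protein-coding genes with at least 1 NACL-only region. For 2iLIF-only regions the shares were 11.8% of the list (Etv1 and Myc) and 5.12% of all genes. These gene shares also depend on the number of regions per gene, and among naive pluripotency genes they were 27.8% for 2iLIF-only and 16.7% for NACL-only regions, although the shares of regions were below the background. The genes were Dusp4 and Dusp6, which encode phosphatases that switch off ERK, Spry4 and Spred1, which encode inhibitors of the pathway upstream of ERK, the ETS factor gene Etv4, the growth regulator Myc and Phlda1.

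A region 30.1 kb downstream of Dusp6 (chr10:99286309-99294971, between genes) ranked 27419 and 23595 in 2iLIF B9 and B12, and 8808 and 5528 in NACL B9 and B12. Its maximum signal was 10 and 11 in 2iLIF and 20 and 23 in NACL, and all 4 SOX2 libraries had a peak there. The promoter region of Spry4, 0.924 kb upstream of its start (chr18:38601381-38605355), ranked 49495 and 161856 in 2iLIF against 10631 and 12414 in NACL, with maxima of 8 and 6 against 18 and 16. A second Spry4 region 27.4 kb upstream ranked 46050 and 71377 against 8988 and 11977. At both genes each NACL library ranked the region higher than either 2iLIF library, which the choice of class fixes.

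The region at the start of Dusp4 (235 bp upstream, chr8:34804552-34813708) ranked 33487 and 46104 in 2iLIF and 12087 and 12065 in NACL. SOX2 peaks lay there in both NACL libraries and in neither 2iLIF library, in the full lists, which were longer in NACL. Downstream of Myc there were 3 NACL-only regions, 69.9 kb, 119 kb and 137 kb from its start, and 1 2iLIF-only region 163 kb away. The widest gap was 119 kb downstream (chr15:62105188-62111371), with ranks of 132792 and 189618 in 2iLIF and 14074 and 8803 in NACL. H3K4me1 peaks were found there in both NACL libraries and in neither 2iLIF library, in the full lists. These lists held 30698 and 24700 peaks in NACL B9 and B12, and 33252 and 52599 in 2iLIF B9 and B12. Over the 11 ERK regions, SOX2 peaks were present in 6 and 4 in 2iLIF B9 and B12, and in 8 and 7 in NACL B9 and B12. These counts used the full SOX2 lists, which held 13177 and 8203 peaks in 2iLIF and 29623 and 17111 in NACL. The part of list length in the counts was not tested.

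At promoters, 7 and 5 of the 17 ERK response genes had one of the 20000 strongest peaks within 1 kb of a start in 2iLIF B9 and B12, against 10 and 12 in NACL B9 and B12. These were 41.2%, 29.4%, 58.8% and 70.6% of the list, against the 30.0% to 34.6% of all protein-coding genes given above. The promoter of Junb, an AP-1 subunit gene, ranked 32922 with no peak in the other library in 2iLIF, and 16435 and 9050 in NACL. The gene list was not uniform. Dusp6 had promoter ranks of 3322 and 9048 in 2iLIF and 3490 and 2694 in NACL, Spred2 had 2705 and 1644 against 14757 and 5343, and Etv1 had 1554 and 6093 against 2587 and 4841. For the last 3 genes the ranges of the media overlapped or were reversed.

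Regions near Wnt targets and TCF/LEF genes had the opposite bias. Of 40 regions nearest to 15 genes, 5 were 2iLIF-only (12.5%, against 4.77% of all regions) and none was NACL-only. They belonged to 2 genes, 13.3% of the list, against 5.12% of all protein-coding genes with at least 1 2iLIF-only region. These were Sp5, a transcription factor gene induced directly by beta-catenin, and Znrf3, which encodes a ubiquitin ligase that removes Wnt receptors. The strongest, downstream of Sp5 (chr2:70475522-70488717), had ranks of 1561 and 3543 in 2iLIF and 21874 and 169400 in NACL. Its maxima were 30 and 22 against 13 and 6. In both 2iLIF libraries its peak reached within 1 kb of the Sp5 start site, where neither NACL library had any peak. H3K4me1 peaks lay there in both 2iLIF libraries and in neither NACL library, in the full lists, which were longer in 2iLIF. SOX2 peaks were present in all 4 SOX2 libraries. Further Sp5 regions 18.1 kb and 30.1 kb upstream ranked 2191 and 9555 against 22664 and 20853, and 4280 and 10670 against 46151 and 20764. Their promoters did not share one direction. In 2iLIF 7 and 3 of the 15 genes, and in NACL 4 and 4, had one of the 20000 strongest peaks there, which overlapped. Of the 9 measured Wnt promoters, 5 had a positive difference in signal (2iLIF minus NACL), 3 a negative one and 1 none. Rnf43 had promoter ranks of 14544 and 55129 in 2iLIF and no peak and 77985 in NACL. The genes of 2 TCF/LEF factors ran the other way, with weak peaks that ranked 139460 and 268596 against 58438 and 41338 at Lef1, and 166844 and 112209 against 77415 and 33586 at Tcf7. At 2 further genes the ranges of the media overlapped. Axin2, a negative regulator of the pathway, had ranks of 2530 and 19015 in 2iLIF and 13959 and 11173 in NACL, and Ccnd1, a cyclin gene, had 3455 and 7913 against 3552 and 4484.

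Regions near Activin/Nodal pathway genes were also 2iLIF-only more often than the background, in 6 of 64 (9.38%), with none NACL-only, although Activin was added to NACL. The 6 regions lay near Acvr1b, which encodes a type I Activin receptor, near Lefty1, a secreted Nodal inhibitor, near Tgif1, a SMAD corepressor, and 3 near Smad7, an inhibitory SMAD. The Tgif1 and Smad7 regions lay 80.4 to 119 kb from the start site, with their maxima inside other genes. The region inside Acvr1b ranked 6967 and 10204 in 2iLIF and 25016 and 36322 in NACL. The Lefty1 region 10.4 kb upstream ranked 15041 and 17639 against 29631 and 40664, and its 500 bp window held the FOXH1 string TGTGGATT. Promoters of the ligand gene Nodal, of Gdf3 and of the coreceptor gene Tdgf1 were strong in both media, with ranks of 12892 and 4885, 674 and 624, and 4071 and 2292 in 2iLIF. In NACL the same promoters had ranks of 2878 and 3612, 862 and 64, and 2594 and 4834. The Activin/Nodal bias depended on how peaks were ranked. With total instead of maximum signal, 3 of its regions were 2iLIF-only (5.08%, against 5.09% of all) and 4 were NACL-only (6.78%, against 5.0%).

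In the same setting the ERK list had 6 NACL-only regions (7.89%, against 5.0%) and the Wnt list 3 2iLIF-only regions (8.57%, against 5.09%). The ERK count was 18, 12, 23 and 19 NACL-only regions without 2iLIF B9, 2iLIF B12, NACL B9 and NACL B12, or 22.5%, 15.2%, 31.5% and 25.7% of its regions. All regions then had 9.39%, 8.77%, 16.9% and 14.9%. The Wnt count of 2iLIF-only regions was 8, 13, 8 and 6 without the same libraries in turn, or 23.5%, 32.5%, 21.1% and 16.2% of its regions, where all regions had 14.7%, 13.7%, 9.20% and 8.09%. The Activin/Nodal count of 2iLIF-only regions was 14, 10, 9 and 8, or 21.9%, 16.7%, 14.5% and 14.5% of its regions. Its NACL-only count was 1, 1, 10 and 4, and without NACL B9 its share was 16.1%, against 16.9% of all regions. None of these regions was left when no peak of any strength was allowed in the other medium.

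**Figure D2:**
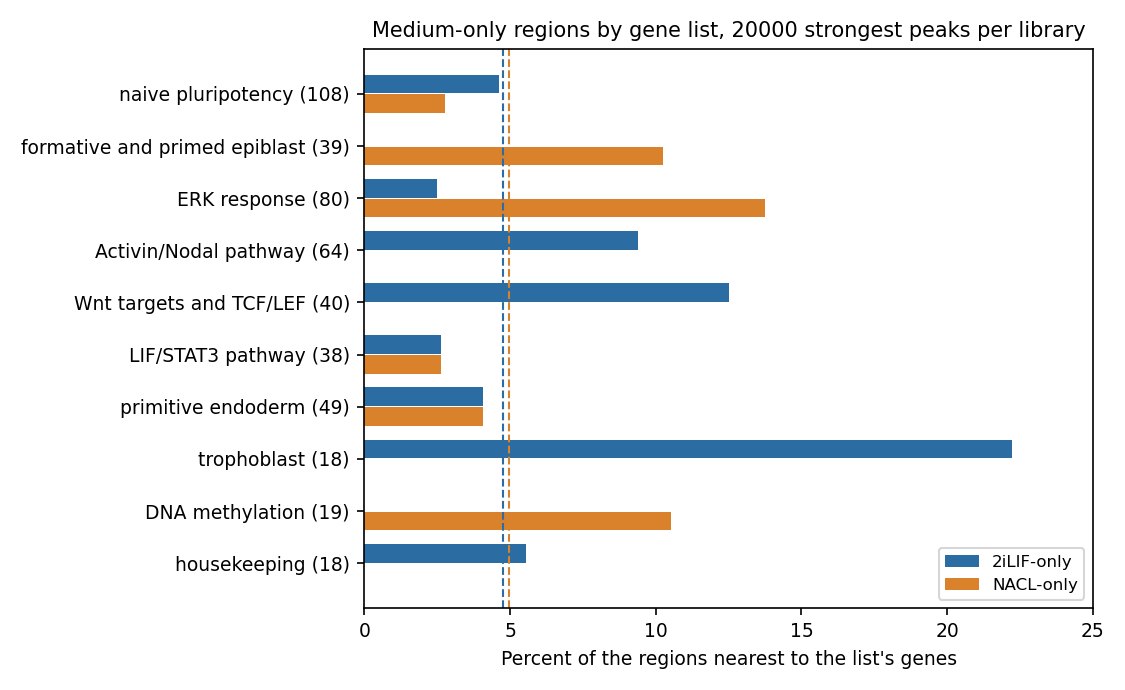
Share of the regions nearest to the genes of each list that were 2iLIF-only (blue) or NACL-only (orange), at 20000 peaks per library, as a percentage on the horizontal axis. Numbers of regions stand in brackets, dashed lines give the shares among all 27908 regions (4.77% and 4.97%), and the ERK response list has the longest orange bar at 13.8%.

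Naive pluripotency genes, the largest list by regions, had medium-only shares near or below the background. Of 108 regions, 5 (4.63%) were 2iLIF-only and 3 (2.78%) were NACL-only, and 43 (39.8%) were shared. A region 49.7 kb downstream of Sox2 (chr3:34697009-34703680) ranked 6140 and 4985 in 2iLIF and 36491 and 35279 in NACL. One inside Prdm14, a gene for a regulator of the naive state that represses DNA methyltransferases, ranked 18136 and 10810 against 132845 and 101022. Klf2, Klf4 and Nanog had 1 2iLIF-only region each, and the Nanog region, 7.66 kb upstream, had no peak in NACL B12. In NACL, regions near Sox2 (235 kb downstream), Tbx3 and Nr5a2 were stronger, that near Tbx3 ranking 69143 and 38720 in 2iLIF and 15137 and 9616 in NACL. Single genes such as Sox2 thus had regions of both classes.

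LIF/STAT3 genes, which respond to a cytokine present in both media, had 1 region of each class among 38 (2.63%). The region near Klf4 was the one named above, and a region 3.56 kb upstream of Socs3, a feedback inhibitor of STAT3 signalling, ranked 36728 and 44564 in 2iLIF and 12697 and 9552 in NACL. Of 39 regions near formative and primed epiblast genes, 4 (10.3%) were NACL-only and none was 2iLIF-only. Among them, 2 were nearest to Cdh2 at over 1 Mb and 1 lay 66.8 kb upstream of Grhl2. Their link to these genes rests on distance alone.

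**Figure D3:**
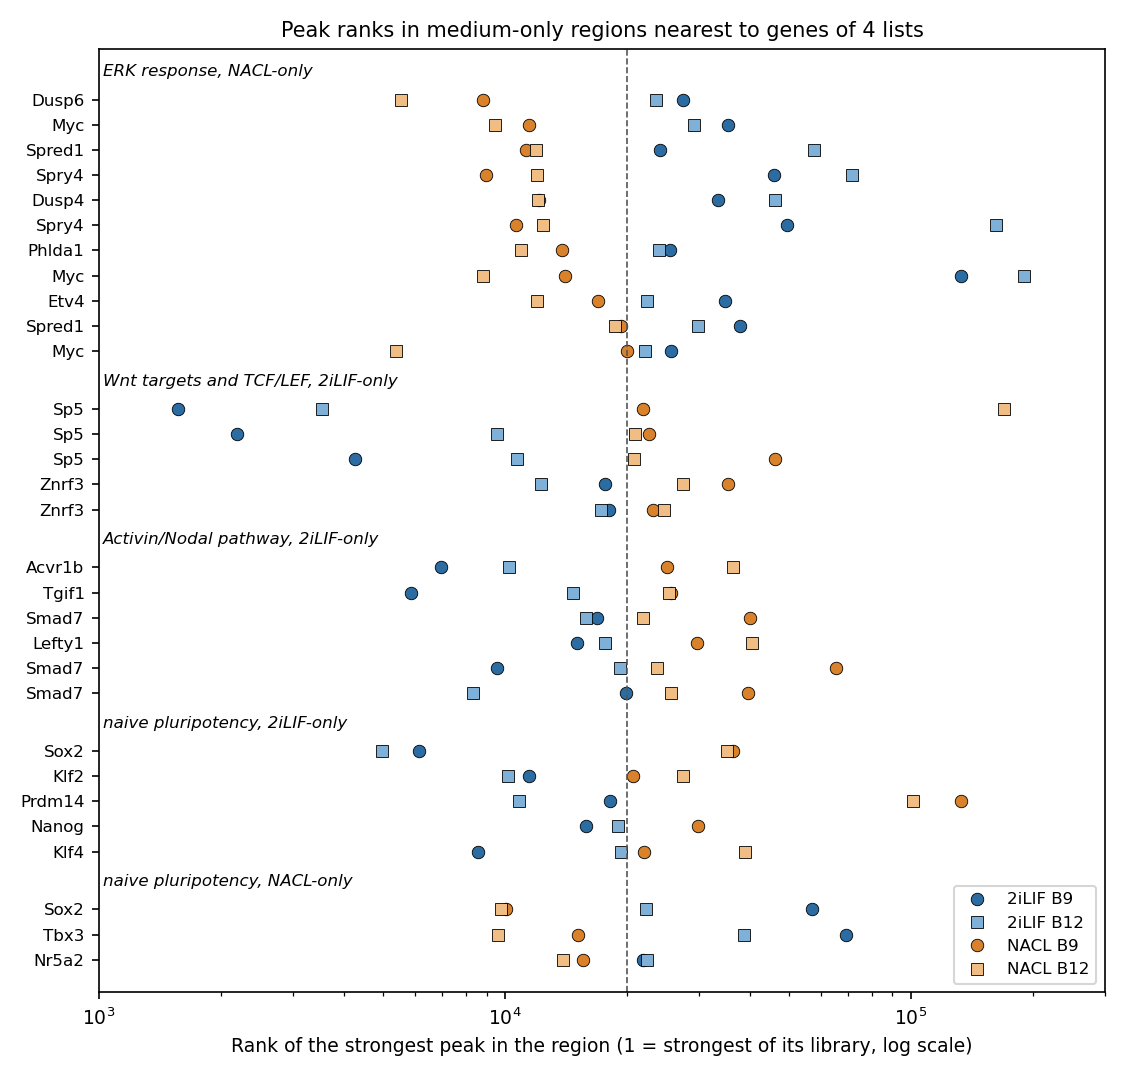
Rank of the strongest H3K27ac peak in medium-only regions nearest to genes of 4 lists, of the classes named in the plot (the 2iLIF-only regions near Etv1 and Myc are not drawn), on a log axis where 1 is the strongest peak of a library. Each line is a region, symbols give the 4 libraries, the dashed line is rank 20000, and in the NACL-only ERK response group all NACL symbols (orange) lie left of it and all 2iLIF symbols (blue) right of it, as the class requires.

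Signal was then compared within the 59617 regions shared at the equal number. With limma on log2(maximum signal + 1) after quantile normalisation, 0 regions passed an adjusted p of 0.05 in the direction of 2iLIF (0%) and 0 in that of NACL (0%), and the smallest adjusted p was 0.489. At an unadjusted p under 0.05, 2941 were higher in 2iLIF and 2996 in NACL. Many values were tied, since the signal was in small whole numbers. After this was seen, the same test was run on peak ranks, as log2 of 100000 over the rank. It called 137 regions higher in 2iLIF (0.230%) and 63 higher in NACL (0.106%), with a smallest limma adjusted p of 6.92e-05. With the clone as a replicate block, 611 and 465 passed, including all 137 and all 63. The calls depended on both 2iLIF libraries, since without 2iLIF B9 there were 5 and 2 and without 2iLIF B12 1 and 0. Without NACL B9 there were 299 and 234, with 114 of the 137 and 50 of the 63 among them, and without NACL B12 there were 81 and 44, with 66 and 16 among them. In the fits with the block or without a NACL library limma pooled the spread wholly over regions. None passed among the 9818 regions shared at 20000 peaks, where the smallest adjusted p on ranks was 0.0790. The calls on ranks are therefore given as values of these 4 libraries.

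Among the 200 regions called on ranks, the region downstream of Sp5 was higher in 2iLIF by 4.73 on the log2 rank scale (SE 0.76, limma adjusted p = 0.00371). Rnf43, which like Znrf3 encodes a ligase acting on Wnt receptors, had a called region inside the gene (chr11:87670726-87686350) with ranks of 281 and 738 in 2iLIF and 16482 and 6520 in NACL, and the same adjusted p. A region 116 kb upstream of Smad7, inside another gene, with ranks of 982 and 296 against 7869 and 5380 passed as well. So did a region inside Lama1, a basement membrane gene of the primitive endoderm list, with ranks of 3670 and 3635 against 47536 and 48523, and a region 86.5 kb upstream of Foxd3, with 3004 and 111 against 12711 and 18130. Of the ERK regions, the Myc region 119 kb downstream was the one called higher in NACL, with a difference of -3.77 (SE 0.78, limma adjusted p = 0.0268).

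Dnmt3l, which encodes a cofactor of the de novo DNA methyltransferases, had a called region inside the gene, 1.67 kb from its start (chr10:78045497-78057933). Its maxima were 7 and 11 in 2iLIF and 24 and 33 in NACL, its ranks 65387 and 22329 against 5636 and 1942, and its difference -3.47 (SE 0.69, limma adjusted p = 0.0201). No other promoter of the DNA methylation list was called on ranks. That of Uhrf1, a cofactor of maintenance methylation, ranked 6727 and 7324 in 2iLIF and 3782 and 2769 in NACL. Tet2 had 1784 and 2382 against 1078 and 1054, so that at both genes the NACL libraries ranked the promoter higher. With total signal the Uhrf1 difference turned to the direction of 2iLIF, as given further below. Tet1 had ranks of 1206 and 1643 in 2iLIF and 2783 and 1286 in NACL, which overlapped.

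The strongest single differences lay outside the pathway lists. Inside Mgat5, a glycosyltransferase gene, a region of 33905 bp held one of the strongest peaks of 2iLIF, with ranks of 16 and 61 and maxima of 60 and 46. In NACL the ranks were 4980 and 7474 and the maxima 25 and 20. A region inside Elk3, an ETS factor gene, ranked 324 and 103 against 7095 and 8034. Inside Pdss2, a gene of coenzyme Q synthesis, the ranks were 827 and 1141 against 33543 and 194498, the smallest adjusted p of all. Ptpn12, Slco5a1, Lrriq4, Kcnt2, Strap, Nup210l and Lrig2 were the other nearest genes among the first 10 higher in 2iLIF.

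In the direction of NACL the region with the smallest p lay inside Chrna9, which encodes a nicotinic acetylcholine receptor subunit. Its maxima were 12 and 10 in 2iLIF and 42 in both NACL libraries, and its ranks were 18689 and 28984 against 1052 and 827. All 4 H3K4me1 and all 4 SOX2 libraries had a peak there. Upstream of Phc1, a Polycomb gene, a region of 19363 bp ranked 12280 and 18086 against 949 and 1196. A region 0.487 kb upstream of Hmga1, a gene for a chromatin protein, ranked 6877 and 12142 against 865 and 314. Txndc2, Apbb1ip, Sec24d, Pecam1, Sgms2, Steap2 and Sgms1 were the other nearest genes of this direction. By p on the signal itself, the first 10 in each direction included Lama1, Ptpn12, Mgat5, Elk3 and Hes1, a Notch target, for 2iLIF and Pecam1, Chrna9 and Phc1 for NACL. The region inside Pecam1, an adhesion molecule gene, ranked 151478 and 112410 in 2iLIF and 7363 and 5966 in NACL.

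For promoters, each gene was given its strongest shared region within 1 kb of a start site. Over these 8979 regions, of 10689 shared regions that near to a start site, the median difference, 2iLIF minus NACL on log2(maximum signal + 1), was -0.06. It was -0.34 over the 13 measured promoters of the ERK response list, 0.23 over 15 of the naive list, 0.18 over 9 of the Wnt list, -0.07 over 14 of the Activin/Nodal list and 0.02 over 9 of the LIF/STAT3 list. No promoter of a list passed the signal test. On ranks, 19 of the 8979 regions were called higher in 2iLIF and 17 in NACL. Of all called regions, 18.2% (12.2% to 25.7%) of those higher in 2iLIF and 27% (16.6% to 39.7%) of those higher in NACL lay within 1 kb of a start site, against 17.9% of all shared regions. The Spry4 promoter had -1.04 (SE 0.24), with an unadjusted p of 0.0133 and a limma adjusted p of 0.489. Of 9 measured housekeeping promoters, 4 had a positive and 5 a negative difference, with a median of -0.03. The largest in size were -0.92 at Gapdh (SE 0.18) and -0.83 at Ppia (SE 0.12).

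At 20000 peaks, regions without any peak in the other medium were few. The strongest 2iLIF-only one lay inside Zfp992, a zinc finger gene (chr4:146452418-146461625), with ranks of 1374 and 444 and maxima of 31 and 35. It held SOX2 peaks in both NACL libraries and in neither 2iLIF library, in the full lists, which were longer in NACL. The strongest NACL-only one lay inside Fbxw4, which encodes an F-box protein (chr19:45649385-45650273, 889 bp), with ranks of 743 and 93 and maxima of 46 and 62. It held H3K4me1 peaks in both 2iLIF libraries and in NACL B12. Setd5 and Nckap1l were further 2iLIF-only examples, with ranks of 11240 and 1689, and of 10854 and 8326. Of the 10 named regions of each class, 3 2iLIF-only and 5 NACL-only regions held an H3K4me1 peak in any library. Pieces of 100 bp from the reference were aligned back to it. More than 50% of pieces fitted several places equally well in 0 of the 18 2iLIF-only and 2 of the 10 NACL-only regions without a peak in the other medium, those nearest to Gm10096 and Ddx18. The Fbxw4 window printed above was 86.0% soft-masked as repeat, although none of that region's pieces fitted more than 1 place.

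Of 15 motif strings searched around the maxima, 2 had shares in the medium-only classes with intervals that did not overlap at 20000 peaks. In the 500 bp window the TCF/LEF string CTTTGAT was found in 12.7% of 2iLIF-only regions (10.9% to 14.6%), in 8.08% of NACL-only regions (6.70% to 9.64%), in 7.92% of shared regions and in 8.68% of all 27908 regions. The AP-1 string TGANTCA, bound by FOS and JUN proteins, was found in 16.5% of 2iLIF-only regions (14.6% to 18.6%), in 22.8% of NACL-only regions (20.6% to 25.1%), in 17.9% of shared and in 19.3% of all regions. Both strands were searched. Away from promoters, in regions over 1 kb from a start site, the shares were 12.8% against 8.36% for TCF/LEF and 17.2% against 26.6% for AP-1. Shared regions over 1 kb from a start site had 9.04% for TCF/LEF and 22.2% for AP-1. The string CATTGT for SOX2, the string GGAATG for TEAD factors and the string AGATAA for GATA factors had shares within 2 percentage points of each other in the 2 classes. At the equal number of peaks the TCF/LEF intervals overlapped (10.8%, 10.2% to 11.4%, in 2iLIF-only and 9.80%, 9.35% to 10.3%, in NACL-only regions). The intervals of 4 strings then did not overlap. AP-1 was in 16.2% of 2iLIF-only, 19.6% of NACL-only and 19.2% of shared regions. The others, more frequent in 2iLIF-only than in NACL-only regions, were OTX2 (GGATTA, 20.8% against 18.4%), ESRRB (TCAAGGTCA, 1.85% against 1.25%) and ETS (CCGGAAGT, 0.666% against 0.398%). Shared regions had OTX2 in 19.7%, ESRRB in 2.35% and ETS in 1.25%. At 20000 peaks OTX2 was in 19.4% against 15.9%, ESRRB in 2.85% against 2.81% and ETS in 1.20% against 1.37%. A match is not a bound site.

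The same strings were counted in the libraries themselves, where the replicate is the library. Among the 20000 strongest peaks TCF/LEF was at 9.42% and 8.94% in 2iLIF B9 and B12, and at 8.07% and 7.96% in NACL B9 and B12. AP-1 was at 16.8% and 17.6% in 2iLIF and at 18.6% and 20.4% in NACL. Neither range overlapped between media. With 2 libraries a medium, the two-sided exact permutation test cannot give a p below 0.333, and both gave 0.333. Over the 44 library measures tested at the 2 peak numbers, 24 did not overlap between media, and the smallest Benjamini-Hochberg adjusted p was 0.611. GC content and CpG number also did not overlap, with 46.3% and 45.9% GC in 2iLIF against 47.1% and 47.7% in NACL, and 9.23 and 8.67 CpG per 500 bp against 10.1 and 11.3. The part of base composition in the motif shares was not tested.

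**Figure D4:**
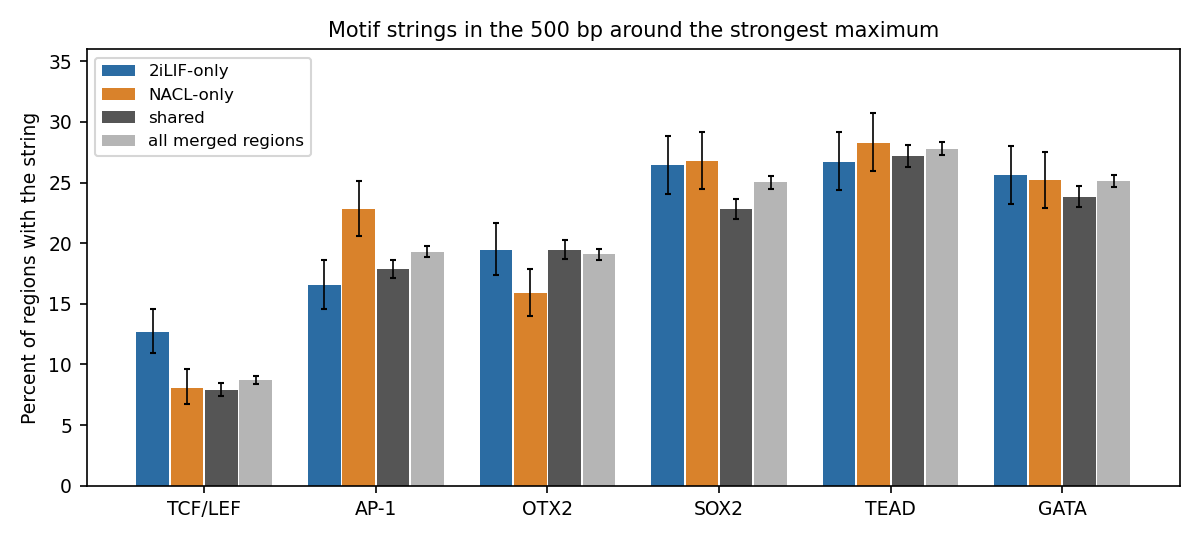
Percentage of regions with each motif string in the 500 bp around the strongest maximum, for 2iLIF-only, NACL-only, shared and all merged regions at 20000 peaks per library. Error bars are 95% Clopper-Pearson intervals, and the TCF/LEF (12.7% against 8.08%) and AP-1 (16.5% against 22.8%) bars of the 2 medium-only classes have intervals that do not overlap.

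SOX2 binding was measured in separate libraries of the same clones and media. The NACL B12 SOX2 library was assigned by its title. Its antibody label gives SOX2, but its source name gives IgG and no medium, so that values of NACL B9 stand without this doubt. With the 8203 strongest SOX2 peaks of each library, 19.4% and 17.9% of 2iLIF-only regions held a peak in 2iLIF B9 and B12, and 11% and 10.1% in NACL B9 and B12. For NACL-only regions the shares were 12.3% and 13.9% in the 2iLIF libraries and 21.1% and 20.3% in the NACL libraries. Shared regions had 25.8% to 27.9% in all 4. The log2 ratio of the 2iLIF-only to the NACL-only share was 0.65 and 0.37 in 2iLIF and -0.94 and -1.0 in NACL. The difference between media was 1.48 (exact permutation p = 0.333, the smallest possible). At the equal number of H3K27ac peaks the ratio was 1.08 ± 0.44 (SD, n = 2) in 2iLIF and -1.26 ± 0.07 in NACL, a difference of 2.34. Within clones that difference was 2.60 in B9 and 2.08 in B12.

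At 20000 peaks H3K4me1 was less symmetric. Of 2iLIF-only regions, 52.7% and 59.1% held one of the 24700 strongest H3K4me1 peaks in 2iLIF B9 and B12, against 37.5% and 36.9% in NACL B9 and B12. Of NACL-only regions, 30.2% and 39.0% held one in 2iLIF, and 33.8% and 36.4% in NACL. The log2 ratio of the shares was 0.80 and 0.60 in 2iLIF and 0.15 and 0.02 in NACL, a difference of 0.62 (exact permutation p = 0.333). The media did not overlap in their shares at 2iLIF-only regions, while at NACL-only regions they did. With the equal number of H3K27ac peaks the ratio was 1.0 ± 0.14 (SD, n = 2) in 2iLIF and -0.30 ± 0.12 in NACL, a difference of 1.30, so the NACL ratio turned sign between the 2 peak numbers. In each library the share in either class was below that in shared regions, which was 56.7% to 62.6%.

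Among the 137 regions called higher in 2iLIF on ranks, 29.2% and 26.3% held a SOX2 peak in 2iLIF B9 and B12, and 14.6% and 10.2% in NACL B9 and B12. Among the 63 called higher in NACL, the shares were 17.5% and 22.2% in 2iLIF, and 34.9% and 36.5% in NACL. All 59617 shared regions had 9.33% to 9.67%. H3K4me1 peaks were in 63.5% and 67.9% of the 137 regions in 2iLIF and in 43.8% and 46.0% in NACL. Over all shared regions they were in 25.8% and 31.7% in 2iLIF, and in 24.3% and 24.9% in NACL. For the 63 regions the media overlapped, with 28.6% and 54.0% in 2iLIF and 36.5% and 47.6% in NACL. The called regions were also wider than all shared ones, with medians of 8076 bp and 5406 bp against 4307 bp.

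Of the other cultures of the series, KOSR SOX2+ and nEnd were compared, and both shared the NACL-only regions more than the 2iLIF-only ones. KOSR is a further ESC medium in the study, and nEnd is its naive endoderm culture. With 13514 peaks each, the KOSR SOX2+ libraries, both of clone B12, had an H3K27ac peak in 22.2% and 19.6% of NACL-only regions and in 6.98% and 8.11% of 2iLIF-only regions. The nEnd libraries of B9 and B12 had one in 19.3% and 25% of NACL-only and in 14.4% and 19.8% of 2iLIF-only regions. Shared regions had 49.6% to 63.4%. These shares were not tested between cultures. The smaller share of promoters among 2iLIF-only regions, given above, moved with this order, and its part was not tested.

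**Figure D5:**
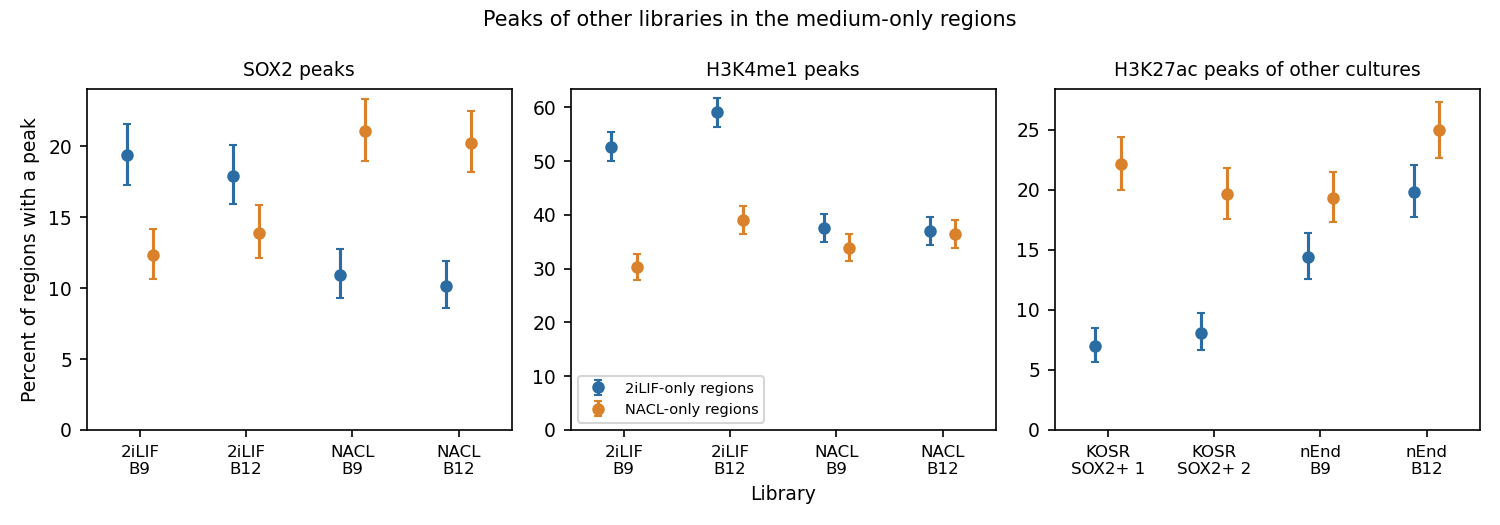
Percentage of 2iLIF-only (blue) and NACL-only (orange) regions, at 20000 H3K27ac peaks per library, that hold a SOX2 peak (left), an H3K4me1 peak (middle) or an H3K27ac peak of other cultures (right), by library, with 95% Clopper-Pearson intervals. SOX2 peaks of 2iLIF lie more often in 2iLIF-only regions (19.4% and 17.9%) and those of NACL more often in NACL-only regions (21.1% and 20.3%).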

How the data were processed

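CUT&RUN peak lists of 4 H3K27ac libraries were analysed, with the H3K4me1 and SOX2 lists of the same clones and media and the H3K27ac lists of KOSR SOX2+ and nEnd cultures. Per the submitters' processing notes the authors used cutadapt 1.18, Bowtie2 2.3.4.1, SAMtools 1.9, Picard 2.9.1, bedtools 2.27.1, deepTools 3.2.0 and SEACR (no version given) on mm10/GRCm38, and their methods call peaks against an IgG control of each experiment. The methods give stringent calling for histone marks, whereas the deposited lists are named relaxed for them. The deposited lists have 6 columns per peak, including total signal and maximum signal, which are coverage values on each library's own scale, and no read totals, so depth and its precision are unknown. The files held 0 columns of other samples.

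Only autosomes (1 to 19), X and Y were used, and peaks were ranked by maximum signal, with ties broken by total signal and then position, and merged at 1 bp overlap. Gene models, with their start sites, were those of GENCODE M21 on GRCm38, and sequences from RefSeq GRCm38.p6. A region was assigned to the protein-coding gene with the start site nearest to its strongest maximum. At single named regions, and over the 11 ERK regions, H3K4me1 and SOX2 peaks were looked up in the full lists. Shares have 95% Clopper-Pearson intervals, which cover counting error only. Library measures were compared by two-sided exact permutation, and signal in shared regions with limma 3.58.1 in R 4.3.3 on log2(signal + 1), with Benjamini-Hochberg adjustment over all shared regions. The limma fits were also run on simulated data, whose noise was assumed and not taken from these libraries. Further tools were Python 3.11.15, numpy 2.4.6, pandas 2.3.3, scipy 1.17.1, matplotlib 3.10.9, bedtools 2.31.1 and minimap2 2.31-r1302.

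Libraries were grouped by medium, and B9 and B12 are separate clones, each grown in both media. The clone therefore pairs the libraries. Over the 59617 shared regions the deviations of the B9 libraries from their medium means correlated at 0.0686 between media. Nothing says whether cultures were separate beyond the clone, so p-values measure the spread between these samples. In limma that spread was also pooled over regions. The main fits on 4 libraries thus had 27.1 total degrees of freedom on ranks and 3.97 on signal. The members and the 12 gene lists were chosen with earlier results of these data known. Genes are named by rule, namely the 10 strongest regions per class without a peak in the other medium, the 10 shared regions with the smallest p per direction, and list genes with the largest promoter difference or nearest to a medium-only region, up to 4 per class. Genes from the fit on ranks, and other list genes named with their values, were chosen after those values were seen. Alternatives covered the number of peaks, ranking column, overlap, interval, normalisation, pseudocount, pairing and each library left out.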

Additional observations from a re-analysis of the deposited data

Results flagged for a closer look

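Of the 44 library measures tested, 16 had a difference between media that ran in opposite directions in the 2 clones. Given here are 4 of them, those among the 18 measures that were recomputed with other settings. The difference between clones was not tested, since each clone had 1 library per medium. Among the 20000 strongest peaks the median width, 2iLIF minus NACL, was -271.5 bp in B9 and 167 bp in B12. The share of peaks within 1 kb of a start site differed by 0.73 percentage points in B9 and by -3.64 percentage points in B12. At the equal number of peaks that share differed by 0.0479 percentage points in B9 and by -0.914 in B12. The number of CpG per 500 bp differed by 0.0528 in B9 and by -0.699 in B12.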

How the results depend on the processing

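Depth was unknown and signal was in small whole numbers, which limits calls within shared regions. Other settings of the signal test (median scaling, another pseudocount, the stronger regions, total signal, and each library left out) gave 0 calls in either direction, as did the replicate block for clone, and the smallest limma adjusted p ranged from 0.0563 with total signal to 0.544 with the block. The fits on peak ranks and the counts of list regions under each setting were added after seeing the data. On ranks, calls were 137 higher in 2iLIF and 63 in NACL, with the replicate block 611 and 465, with median scaling 135 and 54, 5 and 2 without 2iLIF B9, 1 and 0 without 2iLIF B12, 299 and 234 without NACL B9, and 81 and 44 without NACL B12. The pairing by clone changed no other call, since no library test could pass.

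At the equal number of peaks, presence in 50% of a region gave 22543 shared regions, and 250 bp around the maximum gave 18901 2iLIF-only and 29786 shared regions. Requiring no peak in the full lists of the other medium left 9813 2iLIF-only and 7961 NACL-only regions, and all deposited peaks gave 23595 and 8647, so the larger class changed in both settings. Both used the full lists, of which that of 2iLIF B12 was the longest. The 100000 strongest peaks gave 4750 2iLIF-only, 7426 NACL-only and 33284 shared regions, and the 50000 strongest gave 2656, 3568 and 19814. With each library left out there were 19712 to 59774 2iLIF-only and 27827 to 67379 NACL-only regions. At 20000 peaks, presence in 50% of a region gave 5841 shared regions, and 250 bp around the maximum gave 2030 2iLIF-only, 2218 NACL-only and 5748 shared regions. Without any peak in the full lists of the other medium 18 and 10 were left, and with each library left out there were 2086 to 3905 and 2314 to 4470.

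Of library measures, 2iLIF minus NACL, the share of peaks at H3K4me1 peaks turned to -0.121 percentage points with all deposited peaks, the share at SOX2 peaks at the equal number ranged from -0.155 to 0.00403 with each library left out, and the median width at 20000 peaks from -248 to 143.5 bp. The cause was not tested. Promoter differences turned to 0.48 at Uhrf1, -0.39 at Foxd3 and 0.94 at Hhex with total signal. They ranged at Tead4 from -0.156 to 0.0477 and at Nanog from -0.061 to 1.178 with each library left out, turning without NACL B9 at Tead4 (0.15 on ranks) and without NACL B12 at Nanog (-0.31 on ranks). With all deposited peaks of the other cultures, at the equal number 0.277% of NACL-only regions held a peak of the second KOSR SOX2+ library, nEnd B9 had one in 4.68% of 2iLIF-only and 6.06% of NACL-only regions, and nEnd B12 in 5.65% and 7.5%. At 20000 peaks these were 22.7% and 29.2% for nEnd B9, and 27% and 32.6% for nEnd B12.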

Other observations

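Gene lists of other lineages gave small numbers of medium-only regions, to be read against the 4.77% 2iLIF-only and 4.97% NACL-only among all regions. Of 18 regions nearest to trophoblast genes 4 (22.2%) were 2iLIF-only and none was NACL-only, 3 of them downstream of Tfap2c, which encodes an AP-2 factor that is also expressed in naive ESCs. The nearest, 16.9 kb downstream (chr2:172565243-172571644), ranked 6291 and 9304 in 2iLIF and 46605 and 20327 in NACL. The start of Tfap2c itself was weak in all 4 libraries, with ranks of 46486 and 366012 in 2iLIF and 131684 and 96293 in NACL. Of 49 regions near primitive endoderm genes, 2 were 2iLIF-only and 2 NACL-only (4.08% each). A region inside Lamc1, a laminin gene, ranked 11526 and 2533 in 2iLIF and 38531 and 27994 in NACL.

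Of 19 regions near DNA methylation genes, 2 were NACL-only (10.5%, against 4.97% of all regions) and none was 2iLIF-only. Besides the Dnmt3l region there was one inside Tet2, a gene for an enzyme that oxidises methylated cytosine, with ranks of 48191 and 27410 in 2iLIF and 11388 and 16033 in NACL. Of 4 regions near germline genes, 1 was 2iLIF-only, inside Stk31, with ranks of 10502 and 8356 in 2iLIF and 21788 and 73280 in NACL. Of 18 regions near housekeeping genes, 1 (5.56%, against 4.77%) was 2iLIF-only, near Ppia, and of 8 near fibroblast genes 1 (12.5%) was 2iLIF-only, near Col1a1. Among the autosomes and X, chromosome 14 had the lowest share of all 3 classes at 20000 peaks, with 1.95% 2iLIF-only, 2.13% NACL-only and 22.4% shared regions, and Y had 12 regions.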
